A study of Mus musculus with 19 samples.

Results

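Thy1 and Cdh1 are genes of cell surface proteins that bind to neighbouring cells or to matrix. Their members here are the probe sets of a mouse exon array that are annotated to 1 of these genes and to no other gene, which gave 8 probe sets for Thy1 and 18 for Cdh1, 26 of the 194293 probe sets in the deposited table. The level of each gene is the mean of the log2 intensities of its probe sets, and both genes were 2 of the 15781 genes so measured. Both genes were chosen by their differences between genotypes on these same arrays, where they head the ranking of genes by PR+/- minus wild-type difference. Comparisons across PR+/- status, and of Dnmt3a-/- with wild type outside the PR+/- background, are therefore given for them as a description without a test. The comparisons tested, between progenitor types and between the PR+/- groups, share arrays with these, and their p-values are not free of that choice.

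Thy1 encodes a small glycoprotein of the immunoglobulin superfamily that is held in the outer leaflet of the membrane by a glycosylphosphatidylinositol (GPI) anchor. It is the classic marker of mouse T cells and neurons, it is carried at a low level by blood stem cells, and it binds integrins on other cells. Cdh1 encodes E-cadherin, the calcium-dependent adhesion protein of epithelial cells, which joins to E-cadherin on the next cell and is linked to actin inside the cell by catenins. In blood it is known from Langerhans cells and from early erythroid cells, and mast cells and basophils can carry it as well.

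The arrays hold RNA of progenitors sorted from whole mouse bone marrow, the common myeloid progenitor (CMP) and the granulocyte-monocyte progenitor (GMP). Dnmt3a encodes a DNA methyltransferase that places new methylation marks. The labels abbreviate the other allele as PR, which is taken here to mean PML-RARA, the fusion protein of acute promyelocytic leukaemia, because the series title speaks of it. By that title the question is whether the fusion can cause leukaemia without Dnmt3a. There were 4 arrays of PR+/- Dnmt3a-/- GMP, 2 of PR+/- GMP, 3 of Dnmt3a-/- GMP, 4 of wild-type (WT) GMP, 3 of Dnmt3a-/- CMP and 3 of WT CMP. The strain, C57Bl/6J, is given for the WT and Dnmt3a-/- arrays. The age of the mice, the promoter that drives PR and the strain of the PR+/- mice are not given in the sources used here. Whether each array stands for an animal of its own is not stated, and a p-value then reflects no more than the spread among these arrays, which may be technical. The labels of the PR+/- arrays are written differently from those of the other 13, and a separate array run cannot be told apart from an effect of PR+/-. Numbers in the titles of the WT arrays lie apart from those of the Dnmt3a-/- arrays without PR, and what they stand for is not stated. Any difference tied to them cannot be told apart from an effect of Dnmt3a-/-. Among the latter arrays the numbers alternate between CMP and GMP, and whether neighbours share a mouse is not stated.

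Dnmt3a RNA followed the genotype labels. Its log2 level was 6.09 ± 0.20 (SD, n = 4) in PR+/- Dnmt3a-/- GMP and 7.13 ± 0.09 (n = 2) in PR+/- GMP, 6.13 ± 0.08 (n = 3) in Dnmt3a-/- GMP and 7.44 ± 0.12 (n = 4) in WT GMP, and 6.42 ± 0.06 (n = 3) in Dnmt3a-/- CMP and 7.46 ± 0.21 (n = 3) in WT CMP. Genes of the granulocyte-monocyte progenitor, such as Mpo and Prtn3, had a mean log2 level over 6 genes of 9.68 and 10.4 in the PR+/- Dnmt3a-/- and PR+/- GMP, 10.7 and 10.6 in the Dnmt3a-/- and WT GMP, and 8.69 and 9.82 in the Dnmt3a-/- and WT CMP. In PR+/- against WT GMP, Csf1r alone of the 6 passed (-1.66 ± 0.19, limma adjusted p = 7.11e-04), where 3.07% of all genes did. In PR+/- Dnmt3a-/- against Dnmt3a-/- GMP, Csf1r (-0.80, adjusted p = 0.0375) and Ctsg (-3.58, adjusted p = 0.0323) fell, where 1.24% passed. Both calls were lost in 5 of 7 fits without 1 array. In Dnmt3a-/- against WT GMP, Csf1r was lower (-0.87, adjusted p = 0.0280, lost in 4 of 7), where 1.33% passed. In CMP that comparison had 4 of 6 lower (1.28%). Erythroid genes were at 4.98 to 5.25 in the 4 GMP groups and at 6.79 and 6.68 in the Dnmt3a-/- and WT CMP. Immediate early and heat shock genes, induced by handling among other things, stood high on 5 arrays (PR+/- Dnmt3a-/- GMP 1 and 2 at 8.86 and 8.76, WT GMP 1 and 2 at 7.85 and 7.91, WT CMP 1 at 9.04), and between 6.10 and 7.37 on the others. The Y-linked genes Eif2s3y and Kdm5d had a mean level of at most 3.25 on all 6 Dnmt3a-/- arrays without PR and on PR+/- Dnmt3a-/- GMP 2, WT GMP 4 and WT CMP 3, and of at least 6.73 on the other arrays.

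Thy1 was at its highest in the progenitors that carry PR. Its log2 level was 9.77, 8.91, 9.39 and 10.36 on the 4 arrays of PR+/- Dnmt3a-/- GMP and 10.87 and 9.60 on the 2 arrays of PR+/- GMP. In GMP without PR it was 7.02, 6.61 and 6.72 on the Dnmt3a-/- arrays, against 5.61, 5.50, 5.16 and 5.11 on the WT arrays. In CMP it was 6.69, 6.68 and 6.50 on the Dnmt3a-/- arrays, against 6.34, 5.60 and 5.89 on the WT arrays. Every PR+/- array thus lay above every array without PR, with the lowest PR+/- value at 8.91 and the highest other value at 7.02. In bulk RNA of this kind, more cells with Thy1 and more Thy1 RNA per cell cannot be told apart, and the same holds for each result that follows.

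Cdh1 shared the high level in the PR+/- arrays and differed from Thy1 in the CMP. It was at 10.20, 9.18, 8.76 and 9.79 on the arrays of PR+/- Dnmt3a-/- GMP and at 10.54 and 9.81 on those of PR+/- GMP. The Dnmt3a-/- GMP were at 6.80, 6.88 and 6.27, against 5.58, 5.58, 5.96 and 5.42 in the WT GMP. The Dnmt3a-/- CMP were at 4.48, 4.56 and 4.83, against 4.41, 4.47 and 4.44 in the WT CMP. Every GMP array of each genotype thus lay above every CMP array, and all PR+/- arrays lay above all others.

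**Figure D1:**
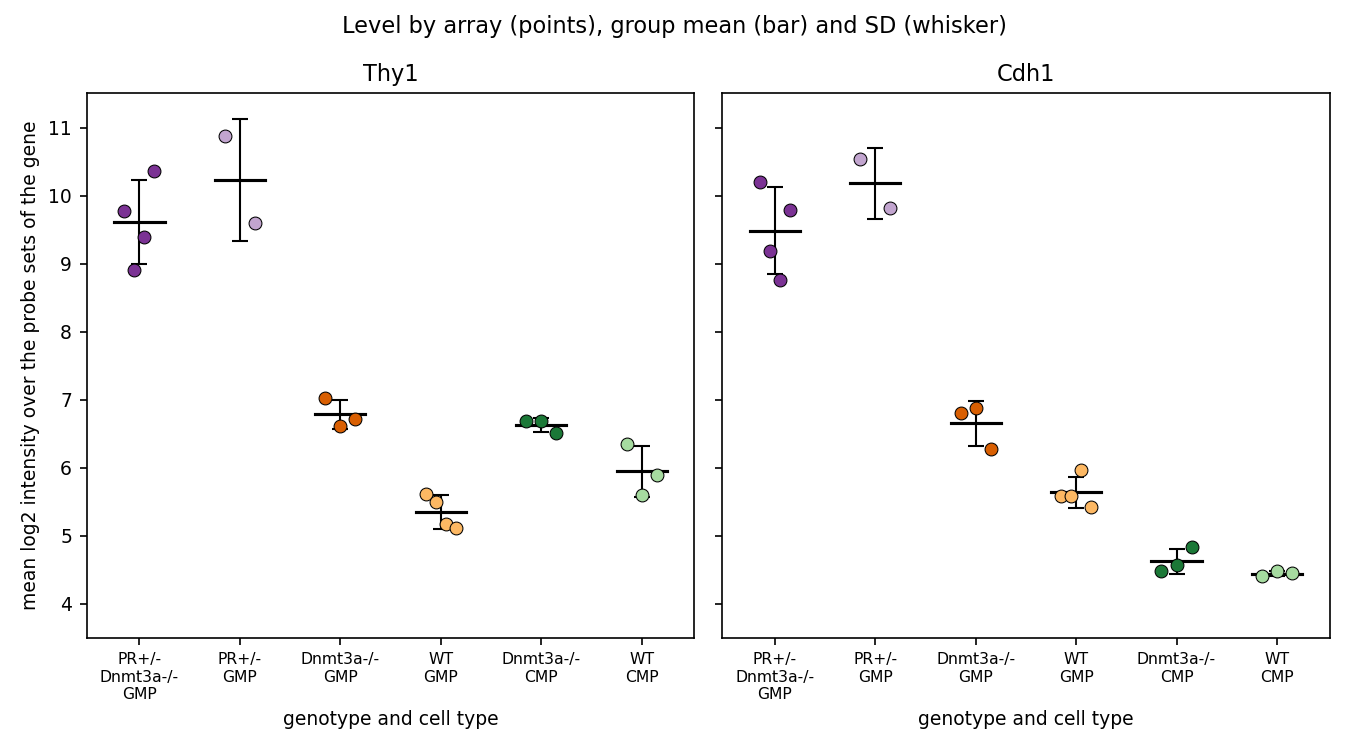
Level of Thy1 (left) and Cdh1 (right) as mean log2 intensity over the probe sets of the gene (vertical axis) on each array (points), by genotype and cell type, with the group mean (bar) and SD (whisker). The PR+/- arrays sit at 8.91 to 10.87 for Thy1 and at 8.76 to 10.54 for Cdh1, above all arrays without PR, and Cdh1 is lowest in the CMP while Thy1 is lowest in the WT GMP.

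Ordered by group mean, Thy1 ran from PR+/- GMP (10.23 ± 0.90, SD, n = 2) over PR+/- Dnmt3a-/- GMP (9.61 ± 0.61, n = 4), Dnmt3a-/- GMP (6.78 ± 0.21, n = 3), Dnmt3a-/- CMP (6.62 ± 0.11, n = 3) and WT CMP (5.94 ± 0.38, n = 3) to WT GMP (5.35 ± 0.25, n = 4). Of the neighbours in this order, the arrays of both PR+/- groups overlapped, as did those of Dnmt3a-/- GMP with Dnmt3a-/- CMP and those of WT CMP with WT GMP. Cdh1 ran from PR+/- GMP (10.18 ± 0.52, n = 2) over PR+/- Dnmt3a-/- GMP (9.48 ± 0.64, n = 4), Dnmt3a-/- GMP (6.65 ± 0.33, n = 3), WT GMP (5.63 ± 0.23, n = 4) and Dnmt3a-/- CMP (4.62 ± 0.18, n = 3) to WT CMP (4.44 ± 0.03, n = 3). Its PR+/- groups overlapped too. The lowest Dnmt3a-/- CMP array stood at 4.48 and the highest WT CMP array at 4.47, and these groups differed in their means by 0.18 where their pooled SD was 0.13. Both genes thus had the same 3 groups on top, and the order of the other 3 groups differed between them.

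PR+/- GMP exceeded WT GMP by 4.89 ± 0.37 (SE of the limma fit of the 13 GMP arrays) for Thy1 and by 4.54 ± 0.35 for Cdh1, differences on the log2 scale that correspond to 29.6-fold and 23.3-fold. They were the largest and the next largest of all 15781 genes in this comparison. Past 4 on the log2 scale there were 4 genes in all, each higher, and the other two were Perp (4.47), a p53 and adhesion-related membrane protein gene, and Nt5e (4.38), which encodes the ecto-nucleotidase CD73. Perp and Nt5e are named here because of these values. Both arrays of PR+/- GMP lay above all 4 of WT GMP for each gene, which was so for 16.1% of all genes. The 2 PR+/- arrays lay 1.27 apart for Thy1 and 0.73 for Cdh1, and replicate 1 was the higher for both genes. Without it the differences were 4.25 for Thy1 and 4.18 for Cdh1, and without replicate 2 they were 5.52 and 4.91.

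In the Dnmt3a-/- background the step between GMP with PR and GMP without was smaller. The genes head the ranking by the step from WT to PR+/- GMP, and choosing genes by it favours a larger value there. PR+/- Dnmt3a-/- GMP exceeded Dnmt3a-/- GMP by 2.83 ± 0.33 for Thy1 (7.10-fold) and by 2.83 ± 0.30 for Cdh1 (7.12-fold), and they stood at ranks 8 and 7 of 15781. All 4 arrays lay above all 3 in both genes, as they did in 8.06% of all genes. Against WT GMP, the PR+/- Dnmt3a-/- GMP were higher by 4.26 ± 0.30 for Thy1 and 3.85 ± 0.28 for Cdh1, again ranks 1 and 2. These comparisons share arrays. With Y-linked signal added to the fit as a covariate, the difference of Thy1 from Dnmt3a-/- GMP was 2.28, and the 4 PR+/- Dnmt3a-/- arrays hold 1 array low in that signal where all 3 Dnmt3a-/- arrays are low. On the first 2 of those 4 arrays, which were high in immediate early signal, Thy1 was at 9.77 and 8.91 and Cdh1 at 10.20 and 9.18. On the other two, Thy1 was at 9.39 and 10.36 and Cdh1 at 8.76 and 9.79. Without the arrays of high immediate early signal, PR+/- Dnmt3a-/- GMP exceeded Dnmt3a-/- GMP by 3.10 for Thy1 and 2.62 for Cdh1. PR+/- minus WT was then 5.10 for Thy1 and 4.49 for Cdh1. Beyond these fits, the part of that signal in the levels was not tested.

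The effect of Dnmt3a loss within the PR+/- background was not resolved by the 6 arrays. PR+/- Dnmt3a-/- GMP differed from PR+/- GMP by -0.62 ± 0.46 for Thy1 (limma adjusted p = 0.709), with a 95% interval of -1.69 to 0.45. For Cdh1 the difference was -0.70 ± 0.41 (limma adjusted p = 0.661), with an interval of -1.65 to 0.26. The intervals hold 0 and also differences of more than 1 on the log2 scale, so the 2 groups were neither shown to differ nor shown to be alike. Both PR+/- GMP arrays entered the ranking that these genes head, which favours high values on them and so a negative difference here. The p-values and intervals are not corrected for that. In this comparison limma called 0 of 15781 genes, 0% of those tested, and 1256 genes had an unadjusted p below 0.05. Without PR+/- GMP replicate 1 the Thy1 difference was 0.01 (limma adjusted p = 0.999), and without replicate 2 it was -1.26.

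Outside the PR+/- background, Dnmt3a-/- GMP were higher than WT GMP for both genes. Thy1 differed by 1.44 ± 0.19 (2.71-fold) and Cdh1 by 1.02 ± 0.17 (2.02-fold), in the fit of the 13 arrays without PR. The 3 Dnmt3a-/- arrays did not overlap the 4 WT arrays in either gene, which was so for 7.88% of all genes in this direction. In CMP, Dnmt3a-/- minus WT was 0.68 ± 0.20 for Thy1 and 0.18 ± 0.18 for Cdh1. The CMP arrays overlapped in neither gene, as in 10.1% of all genes in this direction. The Dnmt3a-/- difference in GMP less that in CMP was 0.76 ± 0.27 for Thy1 and 0.83 ± 0.25 for Cdh1. The Dnmt3a-/- difference within PR+/- GMP was also set against the Dnmt3a-/- minus WT difference in GMP. It deviated by -2.06 ± 0.50 for Thy1 and by -1.71 ± 0.46 for Cdh1 in the fit of the 13 GMP arrays. Choosing the genes by PR+/- minus WT favours a negative value here. All 6 Dnmt3a-/- arrays in these comparisons were low in the Y-linked signal, against 2 of the 7 WT arrays. WT GMP 4 and WT CMP 3, the WT arrays low in that signal, had Thy1 at 5.11 and 5.89 and Cdh1 at 5.42 and 4.44, which lie within or at the foot of the range of their groups.

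**Figure D2:**
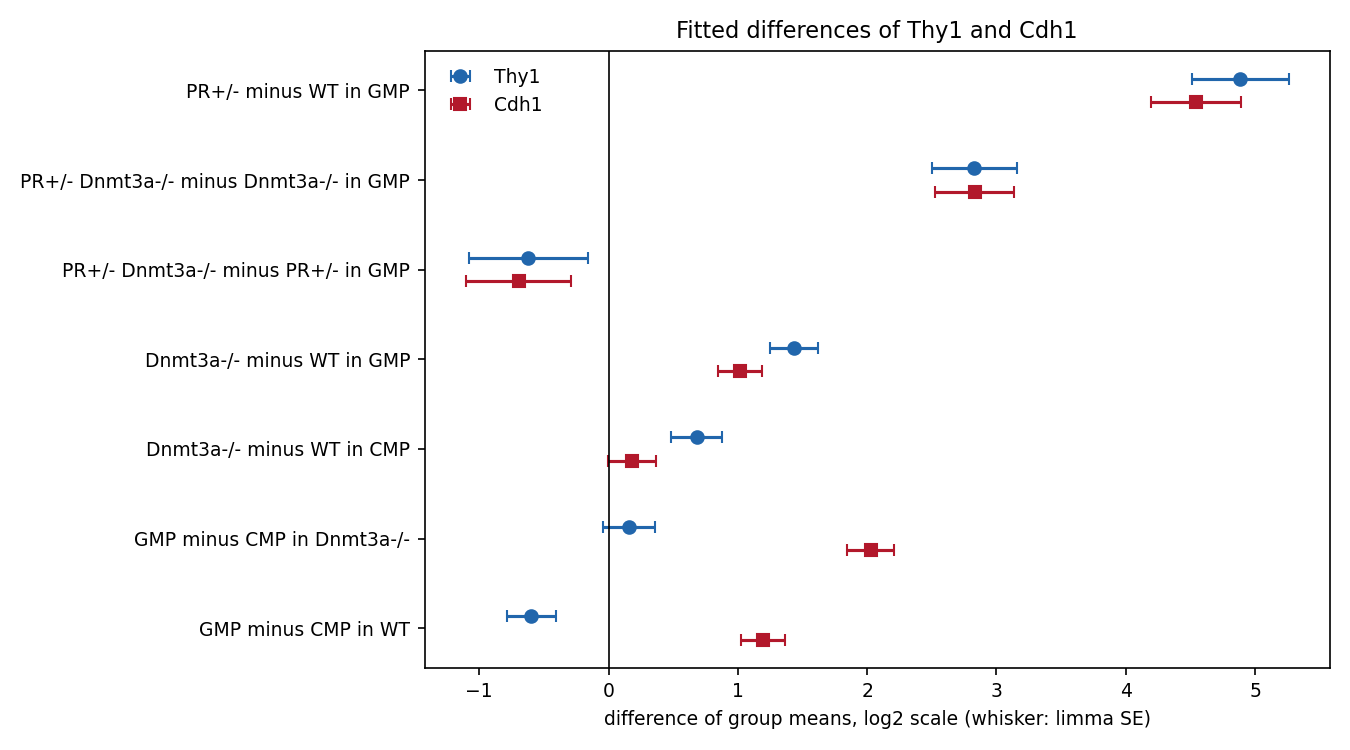
Differences of group means of Thy1 (blue circles) and Cdh1 (red squares) on the log2 scale (horizontal axis) in 7 comparisons, with the SE of the limma fit as whiskers. Both genes have their largest difference between PR+/- and WT GMP (4.89 and 4.54), and they part between GMP and CMP, where Thy1 is at -0.60 and Cdh1 at 1.19 in WT cells.

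The step between the progenitor stages is the comparison where both genes went apart. In WT cells, Cdh1 was higher in GMP than in CMP by 1.19 ± 0.17 (2.29-fold, limma adjusted p = 0.00170), with all 4 GMP arrays above all 3 CMP arrays, as in 7.20% of all genes. In Dnmt3a-/- cells it was higher in GMP by 2.03 ± 0.18 (4.08-fold, limma adjusted p = 3.47e-05), with all 3 GMP arrays above all 3 CMP arrays, as in 17.3% of all genes. Genes called higher made up 1.87% of all genes in WT cells and 5.50% in Dnmt3a-/- cells. Without any 1 array the call of Cdh1 held in both genotypes, with adjusted p-values of at most 0.00942 in WT and 3.94e-04 in Dnmt3a-/- cells. These tests use GMP arrays that also entered the choice of the genes. Choosing genes high in Dnmt3a-/- GMP would favour a higher GMP value in those cells, and the p-values are not corrected for it.

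Thy1 did not pass that test in either genotype. It differed between GMP and CMP by -0.60 ± 0.19 in WT cells (limma adjusted p = 0.102, 95% interval -0.998 to -0.194) and by 0.16 ± 0.20 in Dnmt3a-/- cells (adjusted p = 0.760, interval -0.27 to 0.59). The WT arrays overlapped, since WT GMP 1 at 5.61 lay above WT CMP 2 at 5.60. Whichever array was left out, the adjusted p of Thy1 stayed above the threshold in WT cells, between 0.0538 and 0.379. The 3 WT arrays of high immediate early signal were the highest in Thy1 of their groups, with WT CMP 1 at 6.34 and WT GMP 1 and 2 at 5.61 and 5.50. Without the arrays of high immediate early signal the difference in WT cells was -0.61 (limma adjusted p = 0.117). Beyond that fit, the part of that signal in the Thy1 values was not tested.

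The single probe sets behaved alike in the PR+/- comparison. All 8 probe sets of Thy1 were higher in PR+/- GMP than in WT GMP, on every array, by 3.18 to 5.63 with a median of 5.38 on the log2 scale. All 18 of Cdh1 were higher on every array too, by 2.18 to 5.83 with a median of 4.86, and 11.1% of all 194293 probe sets were so. The smallest differences were those of probe set 5221932 for Thy1 and 4676439 for Cdh1. In PR+/- Dnmt3a-/- against Dnmt3a-/- GMP, all 8 of Thy1 and 17 of 18 of Cdh1 were higher on every array (5.87% of all probe sets), and the exception, 5440021, was higher in its mean by 0.45. The position of a probe set in its transcript is not used here.

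Between PR+/- Dnmt3a-/- and PR+/- GMP, all 8 probe sets of Thy1 and all 18 of Cdh1 were lower in their means, with differences of -0.86 to -0.40 for Thy1 and of -1.05 to -0.38 for Cdh1. The arrays did not overlap for 0 of 8 and 2 of 18 of them, where 8.50% of all probe sets were lower on every array. Probe sets of 1 gene share the RNA of the array, so their count adds no replicate to the 4 and 2 arrays.

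In the comparisons without PR, some probe sets lay on the other side of 0 from their gene. In Dnmt3a-/- against WT GMP, all 8 probe sets of Thy1 were higher (0.62 to 2.45) and 7 did not overlap, where 5.01% of all probe sets were higher on every array. For Cdh1, 17 of 18 were higher and 9 did not overlap, with 4997498 at -0.08 and the others up to 1.89. In CMP the same comparison gave 7 of 8 higher for Thy1, with 5221932 at 0.00 and 3 not overlapping, where 8.76% of all probe sets were higher on every array. For Cdh1 it gave 11 higher and 7 lower, from -1.35 (4999412) to 1.15 (4829586), so that the small gene mean there stands for probe sets on both sides of 0.

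Between GMP and CMP of WT cells, all 18 probe sets of Cdh1 were higher in GMP, by 0.11 to 2.90, and 6 did not overlap (4.51% of all probe sets). All 8 of Thy1 were lower in GMP (-0.91 to -0.21), and 2 did not overlap (4.21%). In Dnmt3a-/- cells all 18 of Cdh1 were higher in GMP, by 0.30 to 4.04, and 17 did not overlap (11.6%), while 4 of Thy1 were higher and 4 lower. Each gene was thus of 1 direction over its probe sets in WT cells, and Thy1 was not in Dnmt3a-/- cells.

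**Figure D3:**
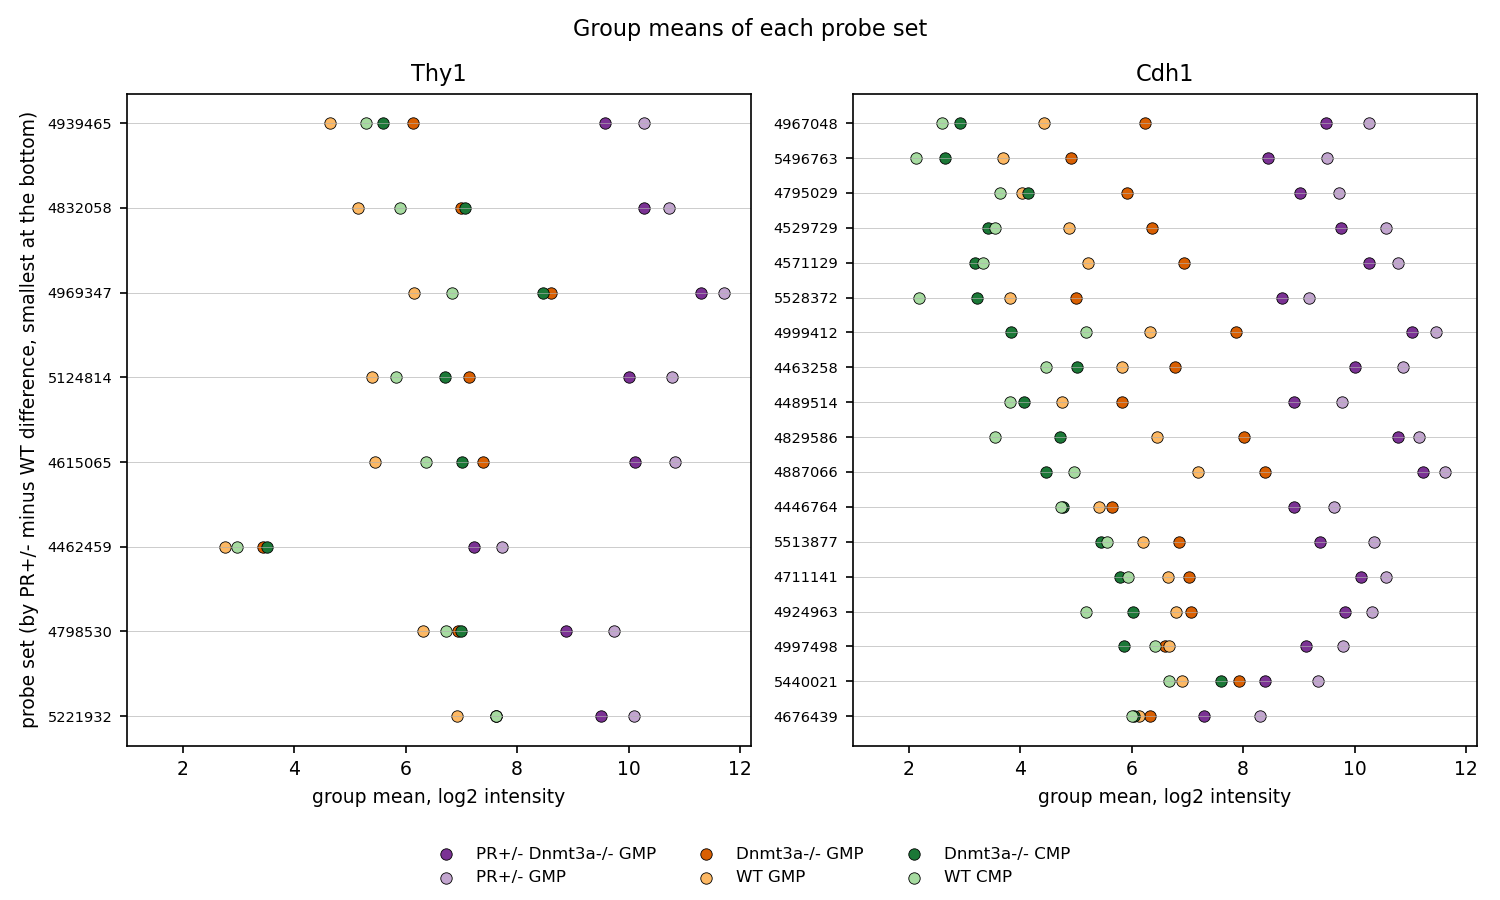
Group mean of each Thy1 probe set (left) and Cdh1 probe set (right) as log2 intensity (horizontal axis), with probe sets sorted by their PR+/- minus WT difference and the smallest at the bottom. In each of the 26 rows both PR+/- groups (purple) lie to the right of the WT GMP (light orange), by 2.18 to 5.83 for PR+/- GMP.

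Across the 19 arrays, Thy1 and Cdh1 had a Pearson r of 0.910, and the 6 PR+/- arrays lay apart from the other 13 in both genes. Once the mean of its group was taken off each value, the r was 0.503. For Thy1, 32 genes followed it more closely than Cdh1 did, and the closest were Iqgap1 (r = 0.967), a scaffold of the actin skeleton and of adherens junctions, Niban1 (0.958), the amino acid transporter gene Slc7a8 (0.957), the proton pump subunit gene Atp6v0a1 (0.953) and Mcub (0.952), a subunit gene of the mitochondrial calcium channel. For Cdh1 the closest were Atp6v0a1 (0.979), the LIM domain regulator gene Lmo4 (0.974), Slc7a8 (0.969), 2210010C04Rik (0.960) and Fut8 (0.959), a fucosyltransferase gene. Slc7a8 and Atp6v0a1 stood in both sets of 5.

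Within groups, the order of the arrays in Thy1 and in Cdh1 differed in part. Among the deviations from the group means, the closest genes to Thy1 were Tmem71 (r = 0.876), the GPI-anchored glypican gene Gpc4 (0.867), Iqgap1 (0.816), Gm5828 (0.805) and Il20ra (0.804). Gm5828 has 1 probe set and a mean level of 2.51, below the 5th percentile of gene levels at 2.58, and Gpc4 is at 3.80. The PR+/- groups spread most in Thy1 (SD 0.61 and 0.90), so their arrays weigh most in these r values. The closest to Cdh1 were Ms4a6b (0.891), Atp6v0a1 (0.876), the mitotic kinesin gene Kif20b (0.856), Icosl (0.842), which encodes the ligand of a T cell co-receptor, and the interleukin-18 receptor gene Il18r1 (0.833). Cdh1 stood at rank 563 for Thy1 by this measure and Thy1 at rank 525 for Cdh1. In PR+/- Dnmt3a-/- GMP, for example, replicate 4 was the highest in Thy1 (10.36) and replicate 1 the highest in Cdh1 (10.20).

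**Figure D4:**
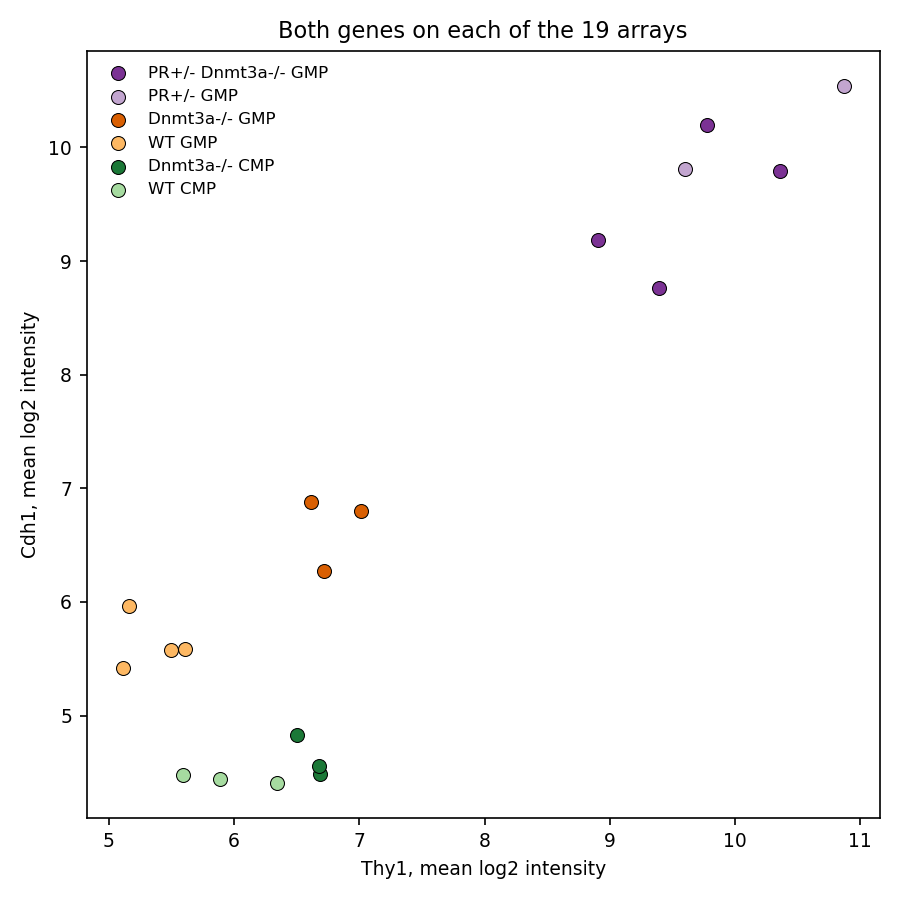
Cdh1 (vertical axis) against Thy1 (horizontal axis), both as mean log2 intensity, with 1 point for each of the 19 arrays, coloured by group. The 6 PR+/- arrays stand apart at the upper right, the Dnmt3a-/- GMP lie above the WT GMP and to their right, and the CMP lie at the foot, at 4.41 to 4.83 of Cdh1.

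Genes next to Thy1 and Cdh1 on their chromosomes had smaller PR+/- differences, none of which was set against those of Thy1 and Cdh1 by a test. Around Thy1, the PR+/- minus WT difference in GMP was 0.21 ± 0.24 for Nectin1 and -0.36 ± 0.21 for Trim29 on one side. On the other side it was 0.81 ± 0.20 for the deubiquitinase gene Usp2 (limma adjusted p = 0.0457) and 1.37 ± 0.38 for Rnf26 (adjusted p = 0.0745). Around Cdh1 it was 0.39 ± 0.19 for Cdh3, the gene of P-cadherin, -0.07 ± 0.20 for Zfp90, 0.09 ± 0.20 for Tango6 and 0.03 ± 0.29 for Has3. Of the 8 neighbours, Usp2 alone passed the threshold, which 3.07% of all genes did. Usp2 also rose in GMP against CMP of Dnmt3a-/- cells, by 1.27 ± 0.22 (adjusted p = 0.00209).

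No other cadherin of the 9 followed passed a test. Of these genes, 0 passed the limma threshold in any of the comparisons. In PR+/- against WT GMP 3.07% of all genes passed, so 0 of 9 is near that share. There 0 of the 9 had an unadjusted p below 0.05, beside 2752 of all 15781 genes. In Dnmt3a-/- against WT GMP 2 of the 9 did, beside 2986 of all genes. Their median PR+/- minus WT difference was 0.03, beside 0.00 over all genes. Cdh17, an intestinal cadherin, was at 0.36 ± 0.18 (limma adjusted p = 0.339), and Cdh5, the cadherin of vessel walls, at 0.06 ± 0.21 (adjusted p = 0.923). Their mean level over the 9 genes lay between 3.67 and 3.88 in the 6 groups, beside a median gene level of 5.37. In each group 5 to 7 of the 9 stood below 4, so a difference in them could be hard to see.

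Among 11 genes of catenins and the adherens junction, 1 rose and 1 fell in PR+/- against WT GMP, where 3.07% of all genes passed, with a median of 0.19. Ctnnd1, which encodes p120 catenin, the partner that keeps cadherins at the surface, fell by 1.08 ± 0.14 (adjusted p = 0.00142), to 5.68 in PR+/- GMP against 6.76 in WT GMP, and kept that call without any 1 array. Iqgap1 rose by 0.58 ± 0.14 (adjusted p = 0.0403), a call that each of the 6 fits without 1 array lost. Beta-catenin, Ctnnb1, was at 8.75 in PR+/- GMP and 8.64 in WT GMP (0.11 ± 0.17, adjusted p = 0.813). In PR+/- Dnmt3a-/- against Dnmt3a-/- GMP, the cortactin gene Cttn rose by 0.77 ± 0.17 (adjusted p = 0.0499), 1 of 11 where 1.24% of all genes passed, and Ctnnd1 was at -0.18 ± 0.12 (adjusted p = 0.523). The call of Cttn was lost in 6 of 7 fits without 1 array.

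The members of that list that passed between the progenitor stages were lower in GMP, where Cdh1 was higher. In WT cells alpha-catenin, Ctnna1, was lower in GMP (-0.80 ± 0.18, adjusted p = 0.0220), 1 of 11 where 4.30% of all genes passed, and the call was lost without WT CMP 1 or WT GMP 1. In Dnmt3a-/- cells 3 of 11 were lower in GMP where 10.1% of all genes passed, namely Ctnna1 (-0.97 ± 0.19, adjusted p = 0.00488), Cttn (-1.62 ± 0.22, adjusted p = 3.57e-04) and Ctnnal1 (-0.77, adjusted p = 0.00373), an alpha-catenin relative.

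Of 9 genes that repress E-cadherin transcription, 1 fell in PR+/- against WT GMP and 0 rose, where 3.07% of all genes passed, with a median of 0.12. Zeb2, a zinc finger repressor, was at 7.97 in PR+/- GMP against 8.82 in WT GMP, a difference of -0.86 ± 0.19 (adjusted p = 0.0274). It was also lower in Dnmt3a-/- than in WT GMP (-0.65 ± 0.13, adjusted p = 0.0342), 1 of 9 where 1.33% of all genes passed. Each of these calls was lost in 5 fits that left out 1 array, and between PR+/- Dnmt3a-/- and Dnmt3a-/- GMP Zeb2 was at 0.13 ± 0.16 (adjusted p = 0.749). Tcf4, the E2-2 factor, was lower in GMP than in CMP in WT cells (-0.87 ± 0.12, adjusted p = 0.00175), 1 of 9 where 4.30% of all genes passed. With the median of the probe sets that call was lost (adjusted p = 0.0938). In Dnmt3a-/- cells 2 of 9 were lower in GMP, where 10.1% of all genes passed. They were Tcf4 (-1.36 ± 0.13, adjusted p = 6.52e-05) and Zeb1 (-0.73 ± 0.21, adjusted p = 0.0437). No fit without 1 array kept the call of Zeb1. The part of these genes in the Cdh1 level was not tested.

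Receptors and proteases of E-cadherin gave 0 of 7 in PR+/- against WT GMP by limma, near the 3.07% of all genes that passed. At an unadjusted p below 0.05 they gave 0 of 7 also, beside 2752 of all 15781 genes. The list had a median difference of -0.01. The integrin that binds E-cadherin is a pair of Itgae and Itgb7, and their differences were -0.01 ± 0.17 and 0.39 ± 0.27. In Dnmt3a-/- GMP against Dnmt3a-/- CMP, 2 of 7 passed, where 10.1% of all genes did. Itgb7 fell by 1.13 ± 0.20 (limma adjusted p = 0.00262) and the protease gene Adam15 rose by 0.60 ± 0.15 (adjusted p = 0.0218). The call of Adam15 was lost in 4 of 6 fits without 1 array.

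Among 8 genes of Thy1 binding partners, Itgb3, the beta chain of the vitronectin receptor, rose in PR+/- against WT GMP, and 7 did not pass, where 3.07% of all genes passed, with a list median of 0.45. Itgb3 was at 6.11 in PR+/- GMP against 4.83 in WT GMP, a difference of 1.28 ± 0.30 (adjusted p = 0.0375), lost in 4 of 6 fits without 1 array. In Dnmt3a-/- GMP against Dnmt3a-/- CMP it was lower (-1.54 ± 0.25, adjusted p = 0.00136), and so was Itgax (-1.65 ± 0.19, adjusted p = 1.59e-04), 2 of 8 where 10.1% of all genes passed. Itgb2, the shared beta chain of the leukocyte integrins, was higher in Dnmt3a-/- than in WT GMP by 0.91 ± 0.19 (adjusted p = 0.0361), at 8.09 against 7.17, 1 of 8 where 1.33% of all genes passed. Leaving out 1 array at a time ended that call in 5 of 7 cases (highest adjusted p 0.179), and it was also lost with the Y-linked covariate (0.209) and with the median of the probe sets (0.0578).

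Among other proteins with a GPI anchor, of 13 genes, 1 rose in PR+/- against WT GMP and 0 fell, where 3.07% of all genes passed, with a median of 0.15, namely Cd160 (1.06 ± 0.24, adjusted p = 0.0310), lost in 4 of 6 fits without 1 array. Cd48 was at 8.81 in PR+/- GMP and 8.78 in WT GMP, and Ly6e at 12.58 and 12.39. Of 22 genes that build or attach the anchor, 0 passed in PR+/- against WT GMP by limma, with a median of 0.15 as well. There 3 of the 22 had an unadjusted p below 0.05, beside 2752 of all 15781 genes. Between GMP and CMP, the complement regulators Cd55 and Cd59a were lower in GMP and Ly6c2 was higher, in both genotypes, 3 of 13 where 4.30% of all genes passed in WT and 10.1% in Dnmt3a-/- cells. Cd59a differed most, by -2.59 ± 0.62 in WT cells (adjusted p = 0.0331) and -3.53 ± 0.67 in Dnmt3a-/- cells (adjusted p = 0.00373). In WT cells, 4 of the 7 fits with 1 array left out lost Cd59a, 4 lost Ly6c2 and 1 lost Cd55, and Cd59a was also lost without the arrays of high immediate early signal (adjusted p = 0.250). In Dnmt3a-/- cells the call of Cd55 was lost in 3 of 6 fits without 1 array.

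**Figure D5:**
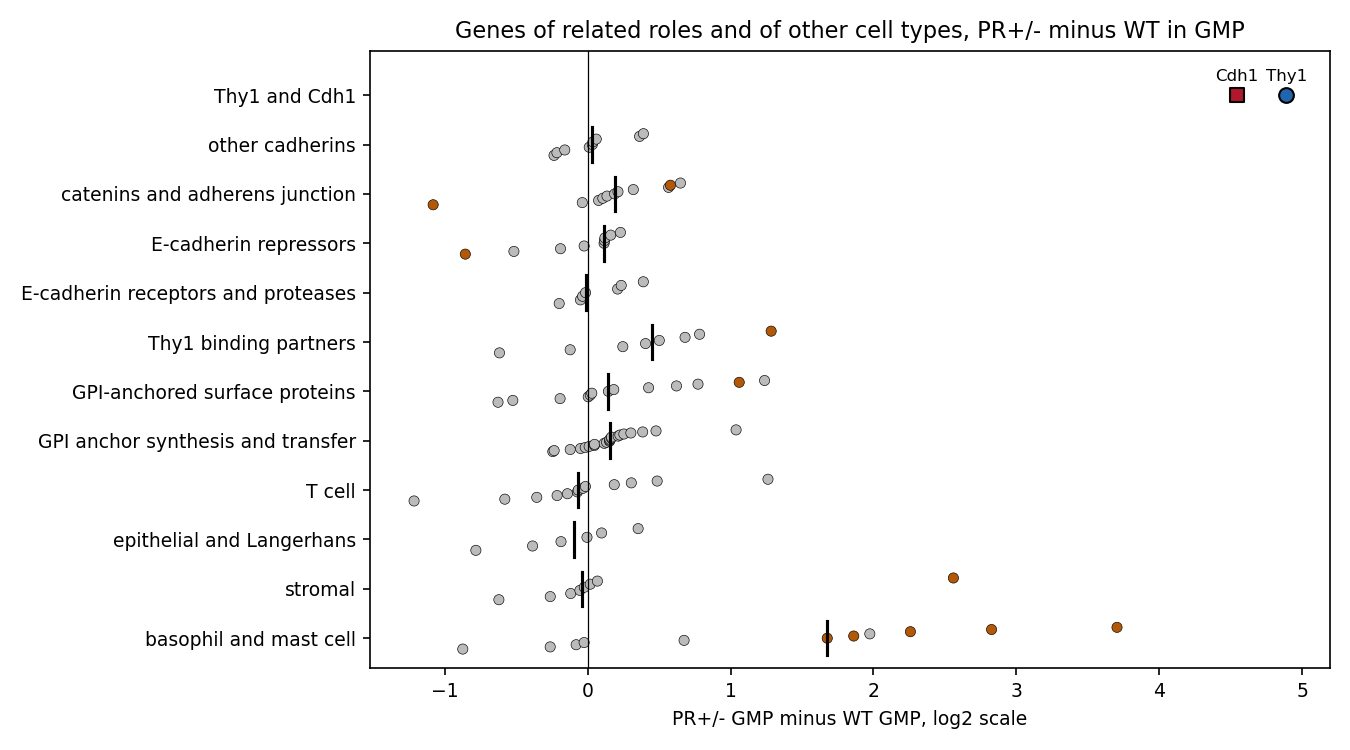
PR+/- minus WT difference in GMP on the log2 scale (horizontal axis) for Thy1 (blue circle), Cdh1 (red square) and the measured genes of 11 lists, with 1 point per gene, genes past the limma threshold in orange and the list median as a vertical bar. Thy1 (4.89) and Cdh1 (4.54) lie beyond every listed gene, of which Cpa3 at 3.70 reaches farthest.

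Genes of the cell types in which Thy1 or Cdh1 is best known were followed in the same arrays. T cell genes gave 0 of 13 by limma in PR+/- against WT GMP, where 3.07% of all genes passed. Without adjustment 3 of the 13 had a p below 0.05 there, beside 2752 of all 15781 genes. In PR+/- Dnmt3a-/- against Dnmt3a-/- GMP they gave 0 of 13, where 1.24% of all genes passed. Without adjustment they gave 0 of 13 there also, beside 2381 of all genes. For a list of 13 genes, 0 limma calls is near the shares of 3.07% and 1.24%. Their mean log2 level was 4.58 in PR+/- Dnmt3a-/- GMP (4.48 to 4.72 by array), 4.58 in PR+/- GMP (4.55 to 4.60), 4.60 in Dnmt3a-/- GMP, 4.61 in WT GMP (4.50 to 4.70), 4.81 in Dnmt3a-/- CMP and 4.70 in WT CMP. Single members went both ways in PR+/- minus WT, with a median of -0.07. Lat, a signalling adaptor of the T cell receptor, was at 6.93 in PR+/- GMP against 5.67 in WT GMP (1.26 ± 0.43, adjusted p = 0.135), and the co-receptor gene Cd28 was at 4.46 against 5.68 (-1.21 ± 0.49, adjusted p = 0.213). Of the receptor complex itself, Cd3d was at 0.31 ± 0.27, Cd3e at -0.07 ± 0.26 and Cd3g at -0.07 ± 0.23. Lat was lower in Dnmt3a-/- GMP than in Dnmt3a-/- CMP (-1.50 ± 0.37, limma adjusted p = 0.0214), 1 of 13 where 10.1% of all genes passed. That call was lost in 4 of 6 fits without 1 array. The part of T cells in the Thy1 level was not tested. Epithelial and Langerhans cell genes gave 0 of 6 by limma in PR+/- against WT GMP, near the 3.07% of all genes that passed. Beside 2752 of all 15781 genes, 0 of the 6 had an unadjusted p below 0.05 there. Their group means were 4.09 and 4.25 in the PR+/- Dnmt3a-/- and PR+/- GMP and 4.29 and 4.40 in the Dnmt3a-/- and WT GMP. Epcam was at 3.57 in PR+/- GMP and 3.48 in WT GMP. In PR+/- Dnmt3a-/- against Dnmt3a-/- GMP 1 of 6 passed, where 1.24% of all genes did, namely Krt18 (-1.65 ± 0.35, limma adjusted p = 0.0395). That call was lost in 6 of 7 fits without 1 array. Krt18 was also called lower in PR+/- Dnmt3a-/- against WT GMP, where 556 of all 15781 genes passed.

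Of 8 stromal genes, Pdgfrb alone passed in PR+/- against WT GMP, where 3.07% of all genes passed. The same held in PR+/- Dnmt3a-/- against Dnmt3a-/- GMP, where 1.24% of all genes passed. It was at 7.26 in PR+/- Dnmt3a-/- GMP and 7.72 in PR+/- GMP, against 4.90 in Dnmt3a-/- GMP and 5.17 in WT GMP, so it rose by 2.56 ± 0.24 in PR+/- against WT GMP (adjusted p = 1.85e-04) and by 2.35 ± 0.21 in PR+/- Dnmt3a-/- against Dnmt3a-/- GMP (adjusted p = 1.11e-04). The collagen and other stromal genes of the list passed in neither of these comparisons, and the list median was -0.04 in PR+/- against WT GMP. In Dnmt3a-/- against WT CMP, Col1a2 rose (0.87 ± 0.17, limma adjusted p = 0.0266) and Pdgfrb fell (-0.68 ± 0.14, adjusted p = 0.0279), where 1.28% of all genes passed. Each of these CMP calls was lost in 5 of 6 fits without 1 array. Both genes were also lower in Dnmt3a-/- GMP than in Dnmt3a-/- CMP, where 10.1% of all genes passed, and Pdgfrb in WT GMP than in WT CMP, where 4.30% did. In PR+/- against WT GMP, where 3.07% of all genes passed, 2 of 8 NK and innate lymphoid genes did. Il7r rose by 1.16 ± 0.28 (limma adjusted p = 0.0441) and Klrk1 fell by 1.05 ± 0.19 (adjusted p = 0.00984). Leaving out 1 array at a time ended the call of Il7r in 4 of 6 cases (highest adjusted p 0.535). It was also lost with the Y-linked covariate (0.0717) and without the arrays of high immediate early signal (0.0812), and the call of Klrk1 was lost without PR+/- GMP replicate 1 (0.246) and with the median of the probe sets (0.120).

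Stem and multipotent progenitor genes were followed because stem cells carry Thy1. In PR+/- against WT GMP 0 of 9 passed, near the 3.07% of all genes that did, with a median difference of -0.09. Their mean log2 level was 5.32 in PR+/- Dnmt3a-/- GMP, 5.38 in PR+/- GMP, 5.46 in Dnmt3a-/- GMP and 5.44 in WT GMP. In CMP it was 6.60 in Dnmt3a-/- cells, against 6.17 in WT cells, where Thy1 was higher in Dnmt3a-/- cells by 0.68. There 4 of 9 rose and 0 fell, with a median of 0.79 and where 1.28% of all genes passed. They were Tek, the angiopoietin receptor gene (1.19 ± 0.21, adjusted p = 0.0177), and the transcription regulator genes Hlf (1.14 ± 0.19, adjusted p = 0.0123), Mecom (1.12 ± 0.19, adjusted p = 0.0121) and Mllt3 (0.87 ± 0.17, adjusted p = 0.0246). The count was 1 to 4 without 1 array and 1 with the Y-linked covariate. The part of stem cells in the Thy1 level of the CMP was not tested. Of 8 erythroid genes, 1 rose in PR+/- against WT GMP and 0 fell (3.07% of all genes passed), with a median of -0.10. It was Gata1 (1.17 ± 0.23, limma adjusted p = 0.0156), which also rose in Dnmt3a-/- against WT GMP (1.11 ± 0.24, adjusted p = 0.0386, 1.33%). Fits without 1 array lost these calls in 2 of 6 and 6 of 7 cases. In WT GMP against WT CMP 0 of 8 rose and 4 fell (4.30%). The part of erythroid cells in the Cdh1 level was not tested.

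Of 11 basophil and mast cell genes, 5 rose in PR+/- against WT GMP, 0 fell and 6 did not pass, where 3.07% of all genes passed. The list median was 1.68, and the 5 were Cpa3, a mast cell protease (3.70 ± 0.36), Ms4a2, a chain of the IgE receptor (2.83 ± 0.43), the transcription factor gene Gata2 (2.26 ± 0.30), Mcpt8 (1.86 ± 0.28) and the histamine synthesis gene Hdc (1.68 ± 0.18). Adjusted p-values were 2.31e-04 to 0.00452. Without PR+/- GMP replicate 1 the count was 2 of 11, and without the arrays of high immediate early signal it was 7. The mean log2 level of the list was 7.68 in PR+/- Dnmt3a-/- GMP (7.42 to 7.99 by array), 7.84 in PR+/- GMP (7.81 to 7.87), 7.64 in Dnmt3a-/- GMP (7.34 to 7.80), 6.59 in WT GMP (6.36 to 6.78), 5.86 in Dnmt3a-/- CMP (5.59 to 6.27) and 5.49 in WT CMP (4.98 to 5.79).

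The list stood at 7.68 in PR+/- Dnmt3a-/- GMP and at 7.64 in Dnmt3a-/- GMP, groups whose Thy1 and Cdh1 levels differed by 2.83 each. Its members split there, with Cpa3 (1.77 ± 0.31, adjusted p = 0.0166), Gata2 (1.25 ± 0.27, adjusted p = 0.0395), Hdc (0.99 ± 0.16, adjusted p = 0.00883) and Il4 (0.92, adjusted p = 0.0313) higher and the basophil protease gene Prss34 lower (-3.78 ± 0.24, adjusted p = 7.64e-06). The 4 higher calls were between 0 and 4 in fits without 1 array and 1 without the arrays of high immediate early signal, and 0 with the Y-linked covariate. In Dnmt3a-/- against WT GMP, where Thy1 differed by 1.44 and Cdh1 by 1.02, 3 of 11 rose where 1.33% of all genes passed, namely Fcer1a, Gata2 and Ms4a2, and the list median was 1.12. That count was 1 to 5 without 1 array and 0 with the Y-linked covariate. Between the stages, 5 of 11 rose in WT GMP against WT CMP, where 1.87% of all genes did, and 7 of 11 in Dnmt3a-/- GMP against Dnmt3a-/- CMP, where 5.50% did, while Gata2 fell in both. Without the arrays of high immediate early signal the count in WT cells was 2. The part of basophil or mast cell precursors in the levels of Thy1 and Cdh1 was not tested.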

How the data were processed

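RNA of 19 sorted progenitor samples was measured on mouse exon arrays. The labels' protocols give amplification of 20 ng of total RNA and biotin labelling. The deposited table holds 1 linear intensity per probe set and array, from 1.34 to 16208, and the submitters' processing notes name RMA, Partek and the build mm9 with no role or version. Array medians lay between 53.0 and 56.8, so the intensities were used as deposited, without a further filter, and log2 was taken. Column names matched the labels, with 0 columns left over. Gene symbols come from the platform annotation, and 179496 probe sets carry 1 symbol. The number of arrays limits the precision.

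A gene's value was the mean log2 over its probe sets with 1 symbol. The tests were two-sided moderated tests of limma 3.58.1 (R 4.3.3), called at a Benjamini-Hochberg adjusted p under 0.05 over 15781 genes. The fits held the 13 arrays without PR, the 13 GMP arrays, or the 6 PR+/- arrays. The fitting code was tested on simulated data. Tests planned for PR+/- against WT and for PR+/- Dnmt3a-/- against Dnmt3a-/- are given as descriptions, because both genes lead that ranking.

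Members and gene lists were chosen with earlier results of these data known. Besides Thy1 and Cdh1, the text names Dnmt3a, probe sets that depart from their gene or bound its range, the 5 genes closest to each by Pearson r, the 2 measured neighbours on each side (gene order from assembly GRCm38.p6), some of the list members past the threshold, and up to 4 others of high level. Not every list member past the threshold in some comparison is named, for example Slamf1, Kit, Itgb5 and Gpaa1. Exceptions are said to be such where they are named. Alternatives were another gene value, a pseudocount of 16, another normalization, a filter at log2 of 4, array weights, other sample sets, covariates, blocks and leaving out arrays.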

Additional observations from a re-analysis of the deposited data

How the results depend on the processing

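Both calls of Cdh1 between GMP and CMP held under all alternatives run. Over the 11 settings other than leaving out 1 array, limma adjusted p-values were at most 0.0298 in WT and 8.05e-04 in Dnmt3a-/- cells. The alternatives do not undo the choice of the genes on these arrays. Thy1 passed no test under any of them. With a pseudocount of 16, which compresses low values by construction, Thy1 was at 4.31 and Cdh1 at 4.06 in PR+/- minus WT, and Thy1 at 1.14 in Dnmt3a-/- minus WT in GMP. With Y-linked signal added as a covariate, Thy1 was at 2.28 in PR+/- Dnmt3a-/- minus Dnmt3a-/- GMP, and the cause was not tested. Without 1 array, PR+/- minus WT ran from 4.25 to 5.52 for Thy1 and from 4.18 to 4.91 for Cdh1. PR+/- Dnmt3a-/- minus PR+/- ran from -1.26 to 0.0129 for Thy1, with the sign turned only without PR+/- GMP replicate 1, and from -1.06 to -0.33 for Cdh1.

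Both groups with PR+/- number their arrays, sharing 1 and 2. The deviations of arrays with the same number correlated with r = 0.0774 and 0.0169. The deviations of the 2 PR+/- GMP arrays mirror each other, so these r values are not separate and cannot exclude pairs. The main fit took the numbers as no pairs. In both groups replicate 1 lay above replicate 2 for Thy1 and Cdh1. With the replicate block the difference was -0.89 ± 0.21 for Thy1 (limma adjusted p = 0.201) and -0.49 ± 0.20 for Cdh1 (limma adjusted p = 0.330). The SE without it was 0.46 and 0.41, and no gene of the 2 changed its call. The counts of basophil and mast cell genes without 1 array or without the arrays of high immediate early signal were added after seeing the data, and PR+/- minus WT gave 2 to 7 of 11 over them. Group sizes of 2 to 4 arrays limit what could be resolved, and no measure of detection was used.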
